A study of Mus musculus with 24 samples.

Results

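The genes described here are 10 of the 15736 genes in the deposited count table, core genes that make, remove, bind or respond to retinoic acid. They were taken by name: Aldh1a1, Aldh1a2, Aldh1a3, Rdh10, Dhrs3, Cyp26a1, Cyp26b1, Cyp26c1, Crabp1 and Rarb. All 10 were in the table and passed the filter on low counts in every comparison.

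Retinoic acid is a vitamin A derivative that acts as a local signal in embryos. Rdh10 oxidises retinol to retinaldehyde and Dhrs3 reduces it back; the Aldh1a dehydrogenases then oxidise retinaldehyde to retinoic acid, and the Cyp26 enzymes break the acid down. Crabp1 binds retinoic acid in the cytoplasm, and Rarb is a nuclear receptor for it whose own gene is a classical retinoic acid target. In the inner ear, graded retinoic acid is known for its part in setting up the anterior-posterior axis of the otocyst, the epithelial vesicle from which the inner ear forms.

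RNA was sequenced from otocyst epithelium of mouse embryos, with poly(A) selection and stranded libraries. Control embryos (con) were Rosa26rtTA/+, and experimental embryos (R2b) were Rosa26rtTA/+;Tg(tetO-s(dn)Fgfr2b)/+. The transgene encodes a soluble dominant-negative form of FGFR2b, the receptor isoform for FGF3 and FGF10, and is switched on by doxycycline through rtTA, which the Rosa26 locus expresses broadly and not in the otocyst alone. Both genotypes thus carried rtTA, and both were exposed to doxycycline, as 1.5 mg/kg injected into the mother followed by chow with 200 mg/kg. Doxycycline was started at one of 3 ages. Started at E9.75 it ran for 12 hours (the 12-hour exposure, E9.75+12h in the plots), and started at E9.25 it ran for 24 hours (the early 24-hour exposure, E9.25+24h); embryos of both were taken at E10.25. Started at E10.25 it ran for 24 hours, and embryos were taken at E11.25 (the late 24-hour exposure, E10.25+24h). Each library was a pool of the otocysts of 1 genotype from 1 litter, and every litter gave a con and an R2b pool. Usable litters numbered 3 in the first and 4 in both longer exposures, for 22 libraries, with 18.7 to 28.2 M counts each. Litters are numbered within an exposure.

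Expression is given as CPM (counts scaled to library size by common factors), and a gene was called when its FDR was under 0.05. FDR is the Benjamini-Hochberg adjusted p of edgeR's quasi-likelihood test over all genes tested. Otic epithelium markers were high in every library, with 2310 to 7770 CPM summed over 13 genes. Reads of the transgene, which fall on Fgfr2 and on Ighg1, fitted the labels in the 6 libraries of the 12-hour exposure and the 8 of the early 24-hour exposure: Ighg1 was at 1.99 CPM or less in con and at 1030 CPM or more in R2b. In the late 24-hour exposure they went against the labels in litter 1: the library labelled con held 679 CPM of Ighg1 and its R2b partner 54.6 CPM. The labelled con library of litter 3 also held 201 CPM of Ighg1, whereas its counterparts in litters 2 and 4 held 1.42 and 0.736 CPM. In the order of the deposited columns, the library labelled con of litter 1 stood among those labelled R2b, and its partner among those labelled con. Genotypes in that exposure are therefore written as labelled. Differences of Aldh1a1, Aldh1a3 and Rdh10 there are also given without those litters; values of the other genes hold them as labelled unless stated. The library numbers in the titles carry another prefix in each exposure, so exposure and library series cannot be told apart.

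Nuclear receptors for retinoic acid bind paired hexamers repeated in the same direction, and the spacing of the pair is part of the element. Promoter windows of 300 bases from RefSeq (GRCm38.p6) were at hand for 8 of the 10 genes, as 11 windows; Aldh1a3 and Rdh10 had none. They were searched on both strands for a direct repeat of any 2 of the hexamer AGGTCA and its variants (AGTTCA and also GGGTCA and lastly GGTTCA), with a spacer of 1, 2 or 5 bases. 2 of the 8 genes held a match, Rarb and Cyp26a1, and both had the spacer of 5. The Rarb match read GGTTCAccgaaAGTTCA, 53 to 37 bases before the start site. The Cyp26a1 match lay on the opposite strand, where it read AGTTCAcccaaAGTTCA, 32 to 16 bases before the start site. Over all 32851 RefSeq promoter windows, 0.097% held such a repeat with the spacer of 5 and 0.588% held one with any of the 3 spacers. The matches are a description of the letters only. The 100 bases before each start site are shown with the repeated hexamers in capitals, for Rarb on the minus strand at chr14:16575477-16575576, inside the annotated span of the gene, and for Cyp26a1 on the plus strand at chr19:37697708-37697807.
Rarb: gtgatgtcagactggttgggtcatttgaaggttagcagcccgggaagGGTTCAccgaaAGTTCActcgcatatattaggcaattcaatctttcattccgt
Cyp26a1: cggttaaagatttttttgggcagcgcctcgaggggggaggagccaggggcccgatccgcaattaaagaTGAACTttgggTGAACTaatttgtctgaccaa

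The synthesis genes Aldh1a3 and Rdh10, the reductase gene Dhrs3 and the removal gene Cyp26b1 were called higher in R2b at both exposures that ended at E10.25; the synthesis gene Aldh1a1 was called in 1 of them and Aldh1a2 in neither. In the 12-hour exposure, 4 of the 10 genes were called higher in R2b and 0 lower, where 20.0% of all 14882 genes tested were called, 1518 higher and 1455 lower. The 4 were Aldh1a3, Rdh10, Dhrs3 and Cyp26b1, and the median log2 fold change of the 10 genes was 0.38, against 0.011 over all genes. In the early 24-hour exposure, 6 were called higher and 1 lower, where 15.6% of 14979 genes were called, 1362 higher and 973 lower. Those higher were Aldh1a1, Aldh1a3, Rdh10, Dhrs3, Cyp26b1 and Rarb, the one lower was Cyp26c1, and the median was 0.90, against -0.01 over all genes. An unadjusted p under 0.05 was reached by 5 and 8 of the 10 genes, against 35.0% and 32.2% of all genes. Called higher in both were 4 of the 10, against 4.97% of the 14611 genes tested in both, and called lower in both were 0, against 3.89%. In the late 24-hour exposure none of the 10 was called, as for all 15203 genes (0%). Under an unadjusted p of 0.05 were 175 genes (1.15%) and 0 of the 10. DESeq2 called 0 of the 10 as well. Both fits hold litter 1 as labelled, where the transgene reads go against the labels. With the litter as a block and without litter 1, 3 of the 10 were called, among 614 genes. In pooled tissue, a change in the number of cells that express a gene and a change in RNA per cell cannot be told apart.

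**Figure D1:**
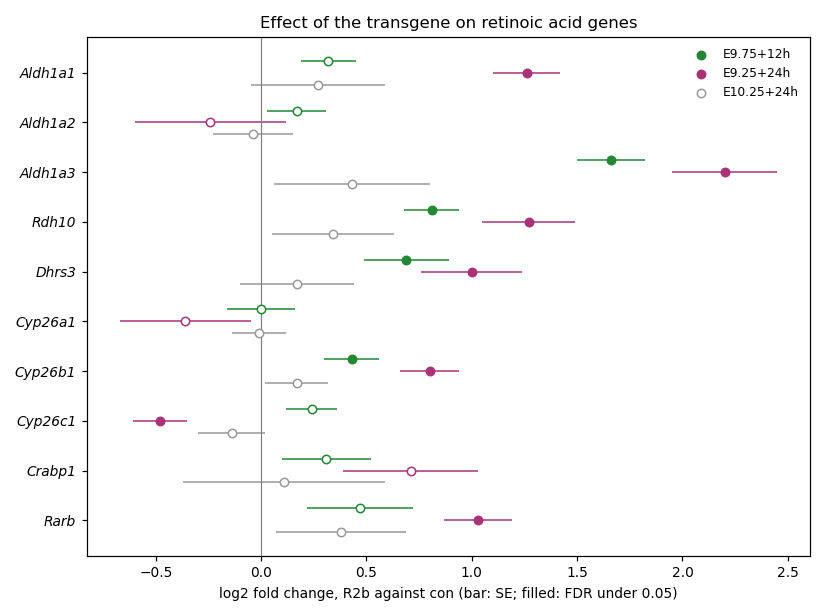
Log2 fold change of R2b against con (x axis) for the 10 retinoic acid genes (y axis) at the 3 exposures, with bars of 1 SE; filled points have an FDR under 0.05. Aldh1a3 lies farthest to the right at both exposures that ended at E10.25 (1.66 and 2.20), Cyp26c1 is the filled point left of 0, and every point of the late 24-hour exposure is open.

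Aldh1a3, a retinaldehyde dehydrogenase (chr7:66390890-66427517, minus strand, GRCm38), gave the largest rise of the 10 genes. Its level after 12 hours was 24.8, 16.0 and 19.0 CPM in the con pools of litters 1 to 3 and 54.0, 65.9 and 67.1 CPM in the R2b pools. After the early 24 hours it was 19.8, 23.7, 13.5 and 14.3 CPM for con and 89.9, 111, 59.2 and 66.4 CPM for R2b, litters 1 to 4. The lowest R2b pool was above the highest con pool in both exposures. The log2 fold change was 1.66 (SE 0.16, FDR 0.000347), a 3.17-fold rise, after 12 hours and 2.20 (SE 0.25, FDR 0.00146), a 4.59-fold rise, after 24 hours. The log2 ratio within each of the 4 litters of the early 24-hour exposure was 2.13 to 2.22, a narrow spread although the con levels themselves varied from 13.5 to 23.7 CPM. Both calls held in every alternative tried, including each litter left out.

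Aldh1a1, the dehydrogenase on chr19:20492715-20643465, rose in the early 24-hour exposure. After 24 hours from E9.25 it was at 31.9, 35.5, 33.0 and 23.8 CPM for con and 71.9, 75.6, 90.7 and 58.1 CPM for R2b, with no overlap. That was a log2 rise of 1.26 (SE 0.16, FDR 0.00217), and the call held in every alternative tried. After 12 hours from E9.75 the con pools lay between 33.2 and 37.5 CPM and the R2b pools at 38.4, 51.2 and 40.6 CPM, also without overlap, but the difference of 0.32 (SE 0.13) had an FDR of 0.103. The difference between the 2 effects, 0.96 on the log2 scale, had an unadjusted p of 0.0201 and an FDR of 0.330 in a fit of all libraries.

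Aldh1a2 (chr9:71215789-71296243), the main retinoic acid synthetic enzyme of early mesoderm, did not pass the test in any exposure. Its log2 difference was 0.17 (SE 0.14, FDR 0.413) in the 12-hour exposure and -0.24 (SE 0.36, FDR 0.693) in the early 24-hour exposure. Its con levels in the early 24-hour exposure ran from 11.8 to 29.0 CPM and its highest R2b level was 27.7 CPM. In both genotypes the pools of litters 1 and 2 were higher than those of litters 3 and 4. The 95% interval of the unblocked fit in the early 24-hour exposure began at -0.94, so that fit could not tell a fall of that size from no change. Within litters 1 to 4 the log2 ratios of R2b over con were -0.53, -0.07, 0.04 and -0.41. Alternative fits ranged from -0.57 to -0.01, with a lowest FDR of 0.0735.

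Levels of the 3 dehydrogenases were compared per kb of exonic length. The 3 together were at 22.5 ± 2.41 CPM per kb (SD, n = 3) in con and 34.4 ± 2.80 in R2b in the 12-hour exposure, and at 19.1 ± 5.31 (SD, n = 4) in con and 40.3 ± 8.79 in R2b in the early 24-hour exposure. In con pools that ended at E10.25, Aldh1a2 held the largest mean share of that sum: 48.8% ± 1.42 in the 12-hour exposure and 45.7% ± 7.55 in the early 24-hour exposure. Aldh1a3 held 19.1% ± 2.21 and 20.2% ± 0.896 in con. In R2b it held 39.1% ± 1.50 and 43.6% ± 5.69, and the R2b shares did not overlap the con shares (highest con 21.5%, lowest R2b 35.1%). Aldh1a2 then held 35.3% ± 3.93 and 18.3% ± 3.98. In R2b in the early 24-hour exposure Aldh1a1, at 38.2% ± 8.76, and Aldh1a3 did not differ beyond their spread. These shares restate the changes of the separate genes per length and carry no test of their own.

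**Figure D2:**
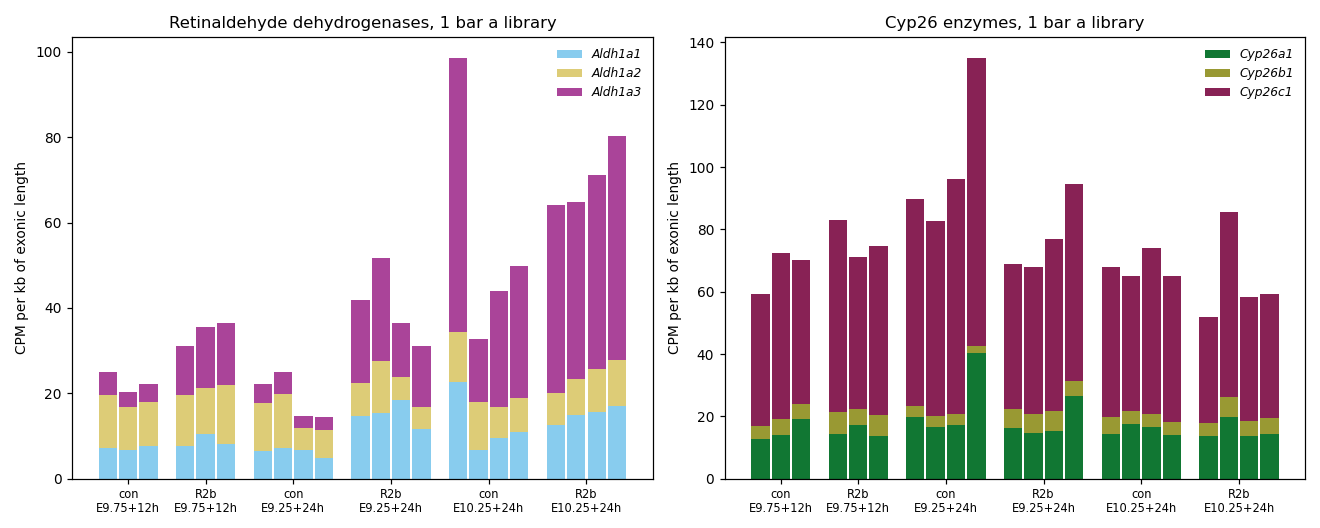
Level of the 3 retinaldehyde dehydrogenases (left) and the 3 Cyp26 enzymes (right) in CPM per kb of exonic length (y axis), stacked, 1 bar for each library in litter order within each group. The Aldh1a3 part is wider in R2b than in con at both exposures that ended at E10.25, and Cyp26c1 makes up most of every bar on the right.

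Rdh10 (chr1:16105774-16133734), which catalyses the step before the dehydrogenases, was the most abundant of the retinoid dehydrogenases and reductases described, at 27.0 to 28.9 CPM per kb on average in con pools ending at E10.25. After 12 hours it was at 147, 103 and 110 CPM for con and 192, 207 and 224 CPM for R2b. The early 24 hours gave 134, 136, 90.0 and 89.4 CPM for con and 316, 340, 194 and 228 CPM for R2b. R2b pools were above all con pools of their exposure each time. The log2 rise was 0.81 (SE 0.13, FDR 0.00245) and 1.27 (SE 0.22, FDR 0.00811). The second call was lost without litter 1, where the rise was 1.28 and the FDR 0.0588; the first held in every alternative.

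Dhrs3 (chr4:144892827-144928209) encodes the reductase that turns retinaldehyde back into retinol, opposite to Rdh10. It was a low gene in the early 24-hour exposure, with 35 counts in its lowest library. Its levels there were 4.38, 3.33, 1.86 and 2.91 CPM for con and 6.93, 6.65, 5.01 and 6.25 CPM for R2b, so that the groups did not overlap. Levels after 12 hours were 7.0, 6.88 and 4.63 CPM for con and 9.53, 9.48 and 10.5 CPM for R2b, again without overlap. The log2 rise was 0.69 (SE 0.20, FDR 0.0318) after 12 hours and 1.0 (SE 0.24, FDR 0.0280) after 24 hours. Neither call survived every litter left out: for the 12 hours the FDR was 0.147 without litter 1, 0.218 without litter 3, 0.0771 with the litter as a block and 0.0889 in the fit of all libraries, and in the early 24-hour exposure it was 0.0777, 0.140 and 0.0690 without litters 1, 2 and 4. With the 12 hours it was also 0.0538 to 0.0964 without any 1 pool other than the R2b pool of litter 2, and in the early 24-hour exposure 0.0512 to 0.0839 without the R2b pool of litter 1 or 2 or the con pool of litter 2 or 4. Its log2 rise stayed between 0.47 and 0.81 in the 12-hour exposure and between 0.82 and 1.20 in the early 24-hour exposure.

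**Figure D3:**
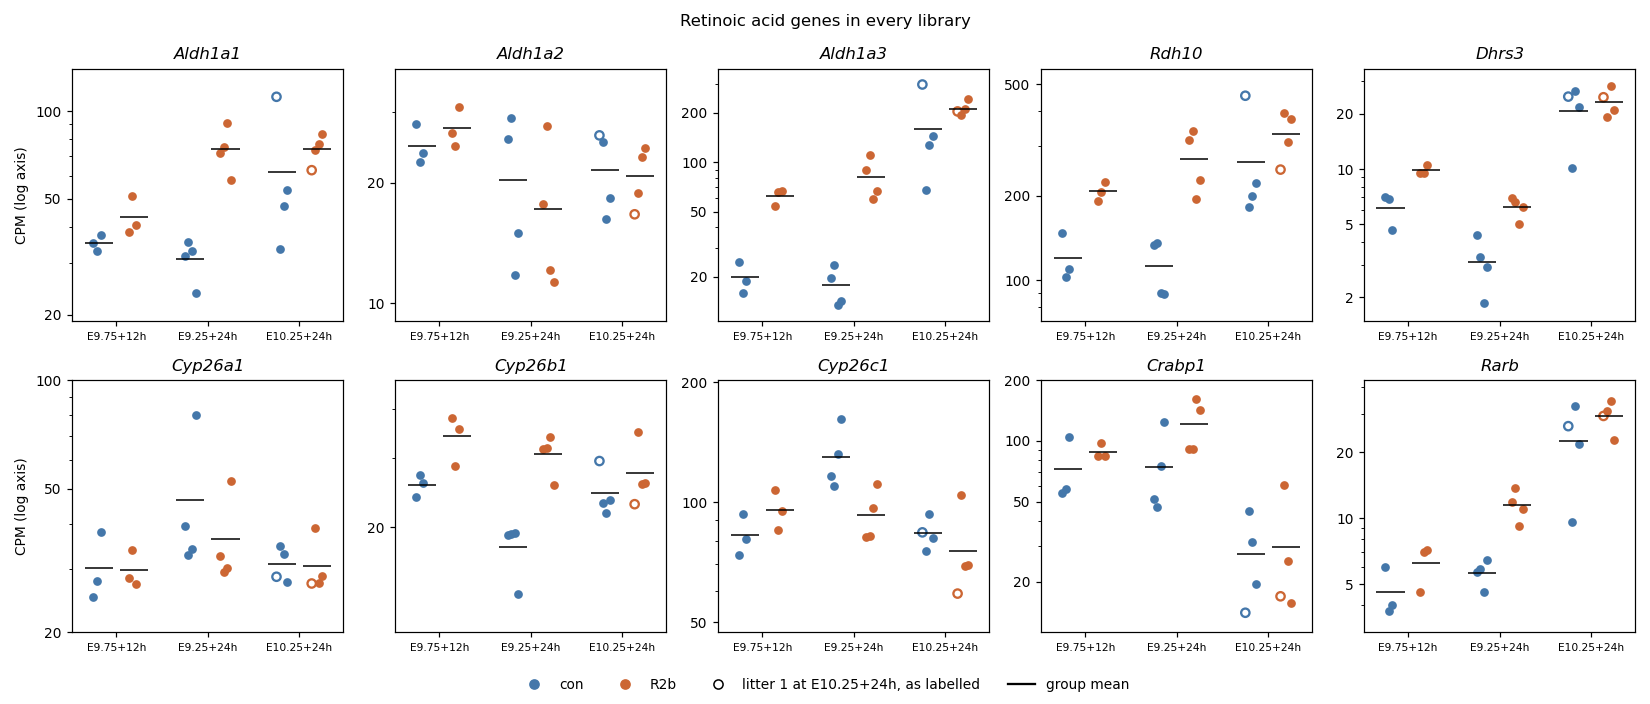
Level of each retinoic acid gene in every library (CPM, log axis) by exposure, con in blue and R2b in orange, with the group mean as a bar. Open circles mark litter 1 of the late 24-hour exposure, where the transgene reads go against the labels; Aldh1a3, Rdh10 and Dhrs3 show no overlap of con and R2b at both exposures that ended at E10.25.

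The Cyp26 enzymes, which oxidise retinoic acid for removal, did not move as a group. Cyp26c1 was the most abundant of them per length, with 67.5% to 74.1% of their sum on average in every group. Cyp26b1 held 3.48% to 8.35%. Their sum was 67.3 ± 7.11 CPM per kb in con and 76.2 ± 5.95 in R2b in the 12-hour exposure, and 101 ± 23.4 in con and 77.1 ± 12.3 in R2b in the early 24-hour exposure. The con sums after the early 24 hours, 82.8 to 135 CPM per kb, overlapped the R2b sums of 67.9 to 94.6. Con sums after 12 hours, 59.2 to 72.5 CPM per kb, and R2b sums, 71.2 to 82.8, overlapped at 1 end.

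Cyp26b1 (chr6:84571414-84593908, minus strand) was higher in R2b at both exposures that ended at E10.25. It was at 23.9, 27.1 and 26.0 CPM for con and 38.0, 28.7 and 35.7 CPM for R2b in the 12-hour exposure. Levels after the early 24 hours were 19.1, 19.2, 19.3 and 13.5 CPM for con and 31.6, 31.9, 34.0 and 25.7 CPM for R2b. No pools overlapped between genotypes. The log2 rise was 0.43 (SE 0.13, FDR 0.0403) and 0.80 (SE 0.14, FDR 0.00843). The first call was lost with the litter as a block (FDR 0.105), in the fit of all libraries (0.0634), without litter 1 (0.403) or litter 3 (0.172), and without any 1 pool other than the R2b pool of litter 2 (0.0839 to 0.173). The second was lost without litter 1 (0.0715) and without litter 2 (0.0609), at rises of 0.83 and 0.84.

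Cyp26c1 (chr19:37685581-37693398) and Cyp26a1 (chr19:37697798-37701536) are neighbours, 4399 bases apart. Cyp26c1 was lower in R2b in the early 24-hour exposure, with 116, 110, 132 and 162 CPM for con and 81.6, 82.4, 96.7 and 111 CPM for R2b. It was lower in all 4 litters, but the highest R2b pool, litter 4, reached above the lowest con pool, litter 2. The log2 fold change was -0.48 (SE 0.13, FDR 0.0421). That call was lost without litter 1, 2 or 3 (FDR 0.144, 0.119 and 0.128) and without any of 6 single pools, the R2b pools of litters 1 to 3 and the con pools of litters 1, 3 and 4 (FDR 0.0538 to 0.122). Cyp26c1 after 12 hours was at 73.7, 93.3 and 80.8 CPM for con and 107, 85.2 and 94.8 CPM for R2b, a log2 difference of 0.24 (SE 0.12, FDR 0.181), or 0.40 (FDR 0.0201) without litter 2. The 2 effects differed by -0.70 on the log2 scale (SE 0.23), with an unadjusted p of 0.00674 and an FDR of 0.265.

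Cyp26a1, one of the genes with a repeat in its promoter, was not called in either exposure that ended at E10.25. Con pools of the 12-hour exposure lay between 25.0 and 37.9 CPM and R2b pools between 27.2 and 33.8 CPM, a log2 difference of 0.00 (SE 0.16, FDR 0.996). Cyp26a1 after the early 24 hours was at 39.3, 32.7, 34.1 and 80.1 CPM for con and 32.5, 29.4, 30.2 and 52.5 CPM for R2b. The pools of litter 4 were the highest of both genotypes. Without a block the log2 difference was -0.36 (SE 0.31, FDR 0.461), and 0.03 without the con pool of litter 4. With the litter as a block it was -0.31 (FDR 0.00713), lower in all 4 litters. In litter 4 the periotic mesenchyme markers summed to 1370 CPM in con and 1260 CPM in R2b, against 90.4 to 447 CPM in the other pools of that exposure, and endothelium markers to 307 and 141 CPM, against 15.9 to 54.7 CPM. Their part in the Cyp26a1 level was not tested.

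Crabp1 (chr9:54764748-54773110) had the highest level per length of the 10 genes in con pools ending at E10.25, at 90.3 ± 35.3 CPM per kb in the 12-hour exposure and 92.9 ± 44.3 in the early 24-hour exposure. It varied widely among litters: con pools of the early 24-hour exposure were at 51.7, 46.8, 75.2 and 124 CPM and R2b pools at 91.5, 91.4, 161 and 142 CPM. The groups overlapped only through the con pool of litter 4, the highest con value. Within each litter the R2b pool was higher, by 0.82, 0.96, 1.10 and 0.20 on the log2 scale. The unblocked difference was 0.71 (SE 0.32, FDR 0.154); with the litter as a block it was 0.76 (FDR 0.000644), and without litter 4 it was 0.99 (FDR 0.0420). Crabp1 after 12 hours was at 54.9, 57.4 and 105 CPM for con and 83.8, 97.2 and 84.3 CPM for R2b, a difference of 0.31 (SE 0.21, FDR 0.304). Without litter 3, whose con pool was the highest, it was 0.70 (FDR 0.00759).

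Rarb (chr14:16430839-16819156, minus strand), the receptor gene and the other one with a repeat in its promoter window, rose in the early 24-hour exposure. It was at 5.68, 5.86, 4.58 and 6.42 CPM for con and 11.9, 13.7, 9.26 and 11 CPM for R2b, with no overlap. The log2 rise was 1.03 (SE 0.16, FDR 0.00472), or 1.02 (FDR 0.0627) without litter 1. Rarb after 12 hours was at 5.96, 3.76 and 4.03 CPM for con and 4.61, 6.99 and 7.18 CPM for R2b. There R2b was lower in litter 1 and higher in litters 2 and 3, and the difference of 0.47 (SE 0.25) had an FDR of 0.211. The 2 effects differed by 0.58 (FDR 0.594), so a difference between 12 and 24 hours was not shown. Rarb shares 1793 exonic bases, 34.06% of its exonic length, with Top2b on the opposite strand, and whether counting used strand was not given in the sources used here. Top2b averaged 646 ± 12.5 CPM for con and 613 ± 23.3 CPM for R2b in the early 24-hour exposure, a log2 difference of -0.07 (FDR 0.283). In the 12-hour exposure the Top2b difference was -0.31 (FDR 0.0894).

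Both direct-repeat genes can be set side by side in the early 24-hour exposure. The Rarb level rose 2.04-fold, while the Cyp26a1 fold of R2b over con was 0.781 and did not pass the unblocked test.

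Litter by litter, the direction of the effect in the early 24-hour exposure was uniform for 9 of the 10 genes: 7 were higher in R2b in all 4 litters and 2, Cyp26a1 and Cyp26c1, were lower in all 4. Aldh1a2 was the exception. The share of all genes with a uniform direction was not counted in any exposure, so such counts describe the 10 genes only. In the 12-hour exposure, 5 genes were higher in all 3 litters, Aldh1a1, Aldh1a3, Rdh10, Dhrs3 and Cyp26b1. The same 5 were the ones whose R2b pools all lay above all con pools; 17.9% of all genes did so at that exposure, and 20.0% lay wholly below con, as 0 of the 10 did. Among pools of the early 24 hours 6 genes did so, against 11.8% of all genes, and 0 lay wholly below con, against 9.87%. Of the 10 genes 0 in the late exposure were separated in either direction, against 0.516% higher and 0.523% lower.

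**Figure D4:**
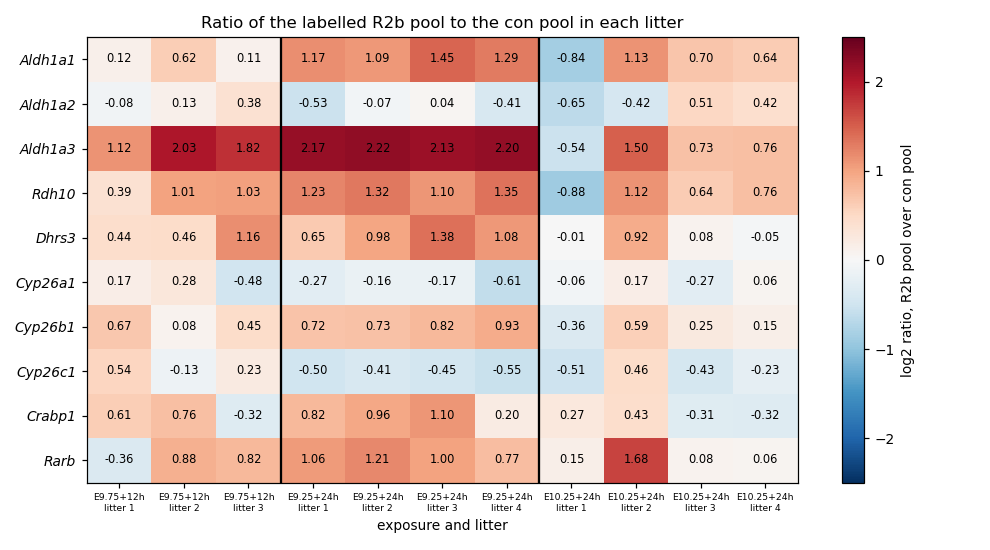
Log2 ratio of the pool labelled R2b over the pool labelled con for each retinoic acid gene (y axis) in each litter (x axis), red for higher in R2b and blue for lower, with the value printed. The Aldh1a3 line is red in all litters of the first 2 exposures, and litter 1 of the late 24-hour exposure is blue for Aldh1a1 (-0.84), Aldh1a3 (-0.54) and Rdh10 (-0.88).

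In the late 24-hour exposure the 3 synthesis genes Aldh1a1, Aldh1a3 and Rdh10 were higher in the library labelled R2b in litters 2 to 4 and lower in litter 1, the litter whose transgene reads go against its labels. Aldh1a3 levels in litters 1 to 4 were 296, 67.8, 126 and 143 CPM under the con label and 203, 192, 209 and 242 CPM under the R2b label. Rdh10 levels were 455, 182, 199 and 222 CPM under the con label and 248, 396, 311 and 375 CPM under the R2b label. Aldh1a1 levels were 112, 33.6, 47.2 and 53.6 CPM under the con label and 62.7, 73.8, 76.9 and 83.6 CPM under the R2b label. The library labelled con of litter 1 was the highest of all 8 libraries for each of the 3 genes, and the other libraries labelled con lay below every library labelled R2b.

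As labelled, the log2 difference was 0.43 (SE 0.37) for Aldh1a3, 0.34 (SE 0.29) for Rdh10 and 0.27 (SE 0.32) for Aldh1a1, each with an FDR of 1. Without litter 1 the differences were 0.96, 0.86 and 0.82, with FDRs of 0.164, 0.0756 and 0.105. With the litter as a block and without litter 1, these 3 of the 10 genes were called, at 1.01 (FDR 0.0251), 0.86 (FDR 0.0198) and 0.84 (FDR 0.0198), among 614 genes called in that fit. Without litters 1 and 3, where 2 litters were left, the differences were 1.07, 0.96 and 0.87 with FDRs of 0.402, 0.160 and 0.336. The sizes and calls in this exposure thus depended on which litters were used.

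Cyp26b1 had the same signs, with a log2 ratio of -0.36 in litter 1 and 0.15 to 0.59 in the others, and none of the remaining genes did. Rarb levels were 26.4, 9.61, 32.5 and 21.8 CPM under the con label and 29.4, 31.1, 34.4 and 22.8 CPM under the R2b label, a difference of 0.38 (SE 0.31, FDR 1) in which litter 2 stood out with a log2 ratio of 1.68. The library labelled con of litter 2 was also the lowest for Dhrs3, at 10.1 CPM against 19.3 to 28.2 CPM in the other 7, and the highest labelled con for Crabp1, at 44.8 CPM. In that library surface ectoderm markers summed to 244 CPM, against 44.6 to 85.4 CPM in the other libraries labelled con; their part in these values was not tested. Cyp26a1, Cyp26b1, Cyp26c1 and Aldh1a2 differed by -0.14 to 0.17 between the labelled groups, and their ranges overlapped.

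The difference of the R2b effect between the late 24-hour exposure and the early 24-hour exposure was largest for Aldh1a3 (-1.77, SE 0.43, FDR 0.182), followed by Aldh1a1 (-0.99, FDR 0.396) and Rdh10 (-0.93, FDR 0.460). None of the 10 genes was called in that contrast, nor in the contrast of the early 24-hour exposure with the 12-hour exposure, and 0% of all 15688 genes were called in each. Under an unadjusted p of 0.05 were 5 and 2 of the 10, against 1344 genes (8.57%) and 1908 genes (12.2%) of the table. DESeq2 called 73 and 99 genes in these contrasts, and none of the 10. These contrasts hold litter 1 of the late 24-hour exposure as labelled. Without litter 1 of that exposure the differences of Aldh1a3, Aldh1a1 and Rdh10 shrank to -1.26 (FDR 0.455), -0.45 (FDR 1) and -0.42 (FDR 1), and without litters 1 and 3 to -1.15, -0.40 and -0.33 (FDR 1 each). Without litter 2, and with litter 1 as labelled, the Aldh1a3 difference was -1.98 (FDR 0.0288).

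Control pools taken at E11.25 were compared with those of each exposure taken at E10.25; both comparisons share the late libraries labelled con. Against the early 24-hour exposure, where 35.7% of all 15392 genes were called (2561 higher and 2934 lower), 6 genes were higher at E11.25 (Aldh1a1, Aldh1a3, Rdh10, Dhrs3, Cyp26b1 and Rarb) and 2 lower (Cyp26c1 and Crabp1). Against the 12-hour exposure, where 44.2% were called (3658 higher and 3138 lower), 4 were higher (Aldh1a3, Rdh10, Dhrs3 and Rarb) and 1 lower (Crabp1). The 2 exposures ending at E10.25 themselves differed in 33.8% of genes (2949 higher and 2259 lower), among them 3 of the 10. Mitochondrial genes took 4.36% to 6.69% of the counts in con pools of the 12-hour exposure, 1.53% to 1.70% in those of the early 24-hour exposure and 1.88% to 2.38% in the late libraries labelled con; the part of this in the differences between con groups was not tested. An unadjusted p under 0.05 was reached by 9, 6 and 4 of the 10 genes in these comparisons, against 46.1%, 51.8% and 43.1% of all genes.

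The order by size was headed by Aldh1a3, whose mean labelled con level was 158 ± 97.5 CPM (SD, n = 4) in the late 24-hour exposure against 17.8 ± 4.84 CPM in the early 24-hour exposure and 19.9 ± 4.47 CPM (SD, n = 3) in the 12-hour exposure. Its log2 rise was 3.15 (SE 0.39, FDR 0.000517) and 2.99 (SE 0.44, FDR 0.000261). Dhrs3 went from 3.12 ± 1.04 and 6.17 ± 1.34 CPM to 20.8 ± 7.42 CPM, a log2 rise of 2.74 (SE 0.32, FDR 0.000501) and 1.76 (SE 0.34, FDR 0.00168). Rarb went from 5.64 ± 0.773 and 4.58 ± 1.20 CPM to 22.6 ± 9.68 CPM, a rise of 2.0 (FDR 0.00114) and 2.30 (FDR 0.000354). Rdh10 rose from 112 ± 26.2 and 120 ± 23.8 CPM to 264 ± 128 CPM, by 1.24 (FDR 0.00612) and 1.14 (FDR 0.0106). In all 4 of these genes every library labelled con in the late 24-hour exposure, litter 2 with the lowest values included, was above all con pools of the earlier stage. The share of all genes separated in this way between the stages was not counted, so this describes these genes only.

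Those 4 calls were also made without the libraries labelled con of litters 1 and 3, which hold transgene reads. Against the early 24-hour exposure and the 12-hour exposure the rise was then 2.56 (FDR 0.00698) and 2.40 (FDR 0.000631) for Aldh1a3, and 2.35 (FDR 0.00729) and 1.37 (FDR 0.0197) for Dhrs3. It was 1.48 (FDR 0.0156) and 1.78 (FDR 0.00307) for Rarb, and 0.84 (FDR 0.0248) and 0.75 (FDR 0.0255) for Rdh10. Top2b, which overlaps Rarb, differed by -0.24 (FDR 0.00277) and -0.18 (FDR 0.00916) in these contrasts with all libraries labelled con, and was called lower in both.

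Crabp1 fell between the stages, from 74.5 ± 35.5 and 72.5 ± 28.3 CPM to 27.4 ± 13.7 CPM. Its log2 change was -1.44 (SE 0.40, FDR 0.0151) against the early 24-hour exposure and -1.40 (SE 0.42, FDR 0.0177) against the 12-hour exposure. Every con pool of the earlier stage was at 46.8 CPM or more, and the labelled con libraries in the late 24-hour exposure were at 14.0, 44.8, 31.6 and 19.4 CPM. Without litters 1 and 3 the change was -1.22 (FDR 0.107) and -1.18 (FDR 0.0935), and without the con pool of litter 3 in the 12-hour exposure it was -1.04 (FDR 0.0937) against that exposure.

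The calls of Aldh1a1, Cyp26b1 and Cyp26c1 depended on which earlier exposure served as the reference. Aldh1a1 was higher by 0.99 (FDR 0.0227) against the early 24-hour exposure and by 0.81 (FDR 0.0634) against the 12-hour exposure; the first was 0.49 (FDR 0.107) without the labelled con libraries of litters 1 and 3 and 0.89 (FDR 0.0528) without the con pool of litter 4 in the early 24-hour exposure. Cyp26b1 was higher by 0.46 (FDR 0.0182) and differed by -0.07 (FDR 0.723); its call was lost without the library labelled con of litter 1 (0.36, FDR 0.0516) and without those of litters 1 and 3 (0.40, FDR 0.0976). Cyp26c1 was lower by a log2 change of -0.63 (FDR 0.00278) against the early 24-hour exposure and differed by 0.02 (FDR 0.916) against the 12-hour exposure. Between the 2 exposures that ended at the same stage, Cyp26c1 was higher by 0.65 (FDR 0.00259) in the early 24-hour exposure, Cyp26b1 was lower there by -0.53 (FDR 0.0128), and Dhrs3 by -0.98 (FDR 0.0438). Aldh1a1 was not called between them, at -0.19 (FDR 0.688). The Dhrs3 call of that contrast was lost without any of 6 single con pools, those of litters 2, 3 and 4 in the early 24-hour exposure, litters 1 and 2 in the 12-hour exposure and litter 4 in the late 24-hour exposure (FDR 0.0583 to 0.132). edgeR called neither Cyp26a1 nor Aldh1a2 between any 2 of the con groups; DESeq2 gave Cyp26a1 a change of -0.58 (FDR 0.0497) against the early 24-hour exposure. Aldh1a1 against the 12-hour exposure was at 1.01 (FDR 0.0144) without the library labelled con of litter 2.

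**Figure D5:**
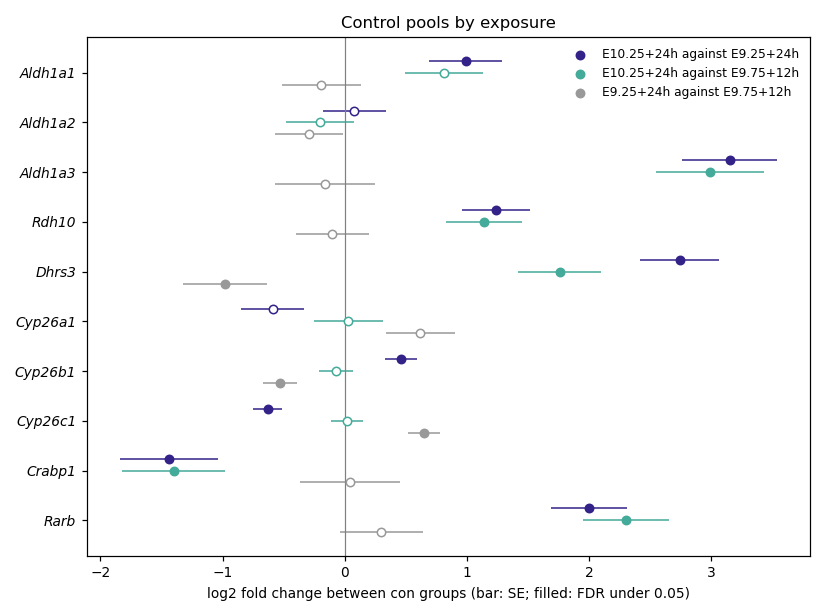
Log2 fold change between con groups (x axis) for the 10 retinoic acid genes (y axis), for the late 24-hour exposure against each earlier exposure and for the 2 exposures ending at E10.25 against each other, with bars of 1 SE; filled points have an FDR under 0.05. Aldh1a3, Dhrs3, Rarb and Rdh10 are filled and right of 0 in both comparisons of E11.25 with E10.25, and Crabp1 is filled and left of 0 in both.

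By level per length, the con pools in the early 24-hour exposure ran in mean order from Crabp1 (92.9 CPM per kb) and Cyp26c1 (74.3) through Rdh10 (27.0), Cyp26a1 (23.5), Aldh1a2 (8.99), Aldh1a1 (6.29), Aldh1a3 (3.87) and Cyp26b1 (3.32) to Dhrs3 and Rarb (1.07 each). Neighbours such as Crabp1 and Cyp26c1, Rdh10 and Cyp26a1, or Aldh1a3 and Cyp26b1 did not differ beyond the spread of the pools. In the libraries labelled con in the late 24-hour exposure the order began with Rdh10 (63.6 ± 30.9), Cyp26c1 (47.8 ± 4.24), Aldh1a3 (34.2 ± 21.1) and Crabp1 (34.2 ± 17.1), which overlapped. Aldh1a3 held 58.5% ± 9.12 of the sum of the 3 dehydrogenases there and 65.5% ± 2.27 in the libraries labelled R2b, and Aldh1a2 held 19.6% ± 9.93 and 13.0% ± 1.22.

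Other genes of the retinoid pathway were counted from a list of 32, of which 25 were in the table and 24 tested. They cover retinol transport, further dehydrogenases, binding proteins, receptors and their cofactors. In the 12-hour exposure 5 were higher by the FDR and 1 lower, where 20.0% of all genes were called; the median log2 fold change was 0.12. Rxrg, the gamma retinoid X receptor, rose by 1.0 (FDR 0.000557), from 20.7 to 23.7 CPM in con to 41.1 to 45.3 CPM in R2b. Fabp5, a fatty acid binding protein that can also carry retinoic acid, fell by 0.68 (FDR 0.00130), from 96.3 to 102 CPM to 56.7 to 65.7 CPM. Ncoa1, a receptor coactivator, rose by 0.58 (FDR 0.00489). Rarg, a retinoic acid receptor, rose by 0.54 (FDR 0.0442), and Stra6, the retinol uptake receptor, by 0.40 (FDR 0.0444). The calls of Rarg and Stra6 were lost with the litter as a block (FDR 0.0844 and 0.0590) and without litter 1 (0.348 and 0.354), that of Rarg also without litter 2 (0.176), that of Stra6 also without litter 3 (0.0692), and that of Ncoa1 without litter 1 (0.0746) or litter 3 (0.0607). Those of Rarg and Stra6 were also lost without several single pools (FDR 0.0699 to 0.182), and the count of 6 fell to 2 without litter 1.

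In the early 24-hour exposure 2 genes of that list were higher by the FDR and 1 lower, against 15.6% of all genes called; the list's median was 0.04. Rxrg rose by 0.85 (FDR 0.0167), from 17.0 to 32.1 CPM in con to 40.8 to 47.8 CPM in R2b, and Fabp5 fell by 0.53 (FDR 0.0141). Nrip1, a receptor corepressor, rose by 0.17 (FDR 0.0249). None of the 3 was called without litter 1 (FDR 0.0513, 0.0918 and 0.142) or without litter 2 (0.0848, 0.0757 and 0.0904). Without litter 4 the Nrip1 FDR was 0.0655, and without single pools the Rxrg and Nrip1 calls were also lost (0.05 to 0.0731), as was that of Nrip1 in the fit of all libraries (0.132). With the litter as a block 11 genes of the list were called, in a fit that called 6086 of all genes. In the late exposure edgeR and DESeq2 called 0 of the 24, and 0 were under an unadjusted p of 0.05.

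Genes known as direct or early retinoic acid targets were counted from a list of 20, of which 15 were in the table. In the 12-hour exposure of 14 tested 3 were higher by the FDR and 1 lower, where 20.0% of all genes were called; their median was 0.31. Ret, a receptor tyrosine kinase, rose by 0.88 (FDR 0.0124), the nuclear receptor gene Nr2f2 by 0.59 (FDR 0.00504) and the zinc finger gene Tshz1 by 0.35 (FDR 0.0359), while the homeobox gene Meis2 fell by 0.60 (FDR 0.00275). Without litter 1 the FDR was 0.0519 for Ret, 0.207 for Tshz1 and 0.0585 for Meis2, and 1 gene of the list was called. Without litter 3 it was 0.0928 for Ret and 0.312 for Tshz1; with the block it was 0.0967 for Tshz1. The Tshz1 and Ret calls were also lost without single pools (FDR 0.0505 to 0.137), and those of Ret and Nr2f2 in the fit of all libraries (0.135 and 0.0517).

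In the early 24-hour exposure again 3 of 14 were higher by the FDR and 1 lower, against 15.6% of all genes; their median was 0.18. Ret rose by 1.30 (FDR 0.0286) and Nr2f2 by 0.64 (FDR 0.0449), and Meis2 fell by 0.51 (FDR 0.0159). Without litter 2 none of the list was called, with an FDR of 0.165 for Ret, 0.205 for Nr2f2 and 0.0756 for Meis2. Without litter 1 it was 0.133 for Ret, 0.145 for Nr2f2 and 0.120 for Meis2, without litter 3 0.0526 for Meis2 and without litter 4 0.0504 for Nr2f2. Single pools left out took the count to between 0 and 4. With the litter as a block 8 genes of the list were called, in a fit that called 6086 of all genes. DESeq2 and edgeR each called 0 of 13 in the late exposure, and 0 were under an unadjusted p of 0.05. With the litter as a block and without litter 1, 2 were called, both higher, among 614 genes called in that fit.

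For scale, the FGF readout list, which holds immediate targets and feedback inhibitors of FGF signalling, was called lower in 12 of 12 genes at both the 12-hour exposure and the early 24-hour exposure, with medians of -1.39 and -1.46. edgeR called 0 of 12 in the late exposure and 0 were under an unadjusted p of 0.05, with a median of -0.37. The list's sum there was 453, 911, 889 and 934 CPM under the con label and 868, 492, 685 and 526 CPM under the R2b label in litters 1 to 4, lower under the R2b label in litters 2 to 4 and higher in litter 1. Otic epithelium markers summed to more CPM in R2b than in con in all 7 litters that ended at E10.25: to 3930 to 4210 in con and 4350 to 5200 in R2b of the 12-hour exposure, and to 2310 to 3640 and 3260 to 5110 of the early 24-hour exposure. Of the 13, 5 were called higher and 1 lower in the first and 2 and 3 in the second, with medians of 0.28 and 0.26. Markers of other tissues were counted in the same way. Of 12 periotic mesenchyme markers 1 was called higher in the 12-hour exposure, with a median of 0.32, and 0 in the early 24-hour exposure, with a median of 0.01. Of 12 hindbrain markers 3 were analysed, and 1 was called higher in the 12-hour exposure. The sum of the 3 was 5.27 to 23.1 CPM for con and 15.6 to 32.5 CPM for R2b in the early 24-hour exposure, higher in R2b in every litter, with 0 called. Pax3 and Nkx6-1, which mark dorsal and ventral neural tube, averaged 0.825 CPM or less in each group of the 12-hour exposure. Endothelium markers had a median of -0.16 with 1 of 10 called lower in the 12-hour exposure, and a median of -0.84 with 0 of 11 called in the early 24-hour exposure. Blood markers had medians of -1.51 and -0.97, with 0 of 8 called in each. The part of these markers' cells in the changes of the retinoic acid genes was not tested.

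To find the genes whose pattern was most like that of the strongest riser and of the gene that fell, log2 CPM was taken about the mean of each exposure in all 22 libraries and compared over 12807 genes. Most like Aldh1a3 were Ets2 (Pearson r 0.966), Tanc1 (0.964) and Sparc (0.962). Most like Cyp26c1 were Brf2 (0.791), Slc7a5 (0.770) and Sema3g (0.765), less close than those of Aldh1a3. The libraries share genotype groups and depth, and the values are descriptions over 22 libraries.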

How the data were processed

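The authors deposited raw counts of reads for each gene, in whole numbers, 1 column for each library, per the file headers and the values. The submitters' processing notes name Novoalign 2.08.03 and mm10, with no role stated; the counting tool, its strand setting and the annotation were not given in the sources used here. Columns were joined to samples by the library numbers in the titles. Of 24 samples 22 had a column, and 2 columns that matched no sample were not used. Gene symbols, positions and exonic lengths came from GENCODE M21 on GRCm38, and promoters from RefSeq.

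CPM values were computed from these counts with trimmed mean of M-values (TMM) factors over all 22 libraries. Tests used edgeR 4.0.16 in R 4.3.3 (filterByExpr, TMM, glmQLFit, glmQLFTest), with limma 3.58.1 as its base. R2b was compared with con within each exposure, con pools were compared in one fit of 3 groups, and differences of effects came from a fit of 6 groups. Standard errors were derived from the F statistic, and 95% intervals are log2 fold change ± 1.96 SE. Alternatives were median-of-ratios size factors, 2 other filters on low counts, DESeq2 1.42.0, the litter as a block, other sets of libraries in the fit, and each pool or litter left out. On simulated counts with 100 genes changed 2-fold, the test recovered 75%, 81% and 75% of them in the 12-hour exposure, the early 24-hour exposure and the late 24-hour exposure, over 14702, 14858 and 15093 genes. Of 100 genes changed 1.5-fold in the same runs it recovered 42%, 51% and 50%. Every library of a simulated group was changed alike. The late figures thus do not cover a litter whose transgene reads go against its labels, such as litter 1.

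Per the labels' protocols, each female gave a con and an R2b pool, and titles carry the litter, so litter numbers pair pools. The values did not show this in the 12-hour exposure, where the pairing rests on the labels alone: the correlation of same-litter deviations from group means was -0.08, -0.23 and -0.24 in the 12-hour exposure, 0.36 to 0.73 in the early 24-hour exposure, and -0.10, 0.37, 0.30 and 0.28 in the late 24-hour exposure. No 2 libraries of a group agreed within sampling noise (chi-square per degree of freedom of 5.48 or more). P-values measure the spread between litter pools, which covers litters, not single embryos. Counts carry no molecular identifiers.

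The genes and the lists were chosen with earlier results of these data known. Named are all 10 genes, members of the 2 retinoid lists with an FDR under 0.05 (at most 6 for each list and exposure), and the 3 genes most like Aldh1a3 and Cyp26c1; Top2b was named after its values were seen. Some genes that the rule selects are counted but not reported here by name.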

Additional observations from a re-analysis of the deposited data

Results flagged for a closer look

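In 5 of 40 sets of 4 libraries, 1 for each gene and group, a single library lay far from the other 3; chance flags about 1 in 20 groups. Rdh10 in the libraries labelled con in the late 24-hour exposure was highest in litter 1, at 455 CPM against 222 CPM in the next, and the transgene reads of that litter go against its labels. Cyp26a1 was highest in litter 4 of the early 24-hour exposure in both genotypes, at 80.1 CPM in con (next 39.3 CPM) and 52.5 CPM in R2b (next 32.5 CPM). Cyp26b1 was lowest in the con pool of the same litter, at 13.5 CPM against 19.1 CPM in the next. Cyp26a1 in the libraries labelled R2b in the late 24-hour exposure was highest in litter 2, at 38.9 CPM against 28.7 CPM in the next.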

How the results depend on the processing

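Of 80 log2 fold changes of the 10 genes over 8 comparisons, 67 did not turn to the opposite sign in any alternative run. All 27 that were called are among them. The 67 include Cyp26a1 in the 12-hour exposure, whose main value rounded to 0 and so could not count as turned. Its alternatives ranged from -0.17 to 0.25. Of the 27 calls 15 were never lost, 4 of them among the 11 of R2b against con. The count of genes called moved with the libraries used: from 4 in the 12-hour exposure to 2 with the litter as a replicate block and 2 with all libraries in one fit, and to between 2 and 5 with 1 pool or litter left out. In the early 24-hour exposure it moved from 7 to between 2 and 7 with 1 left out, and to 9 with the block, which called 6086 of all genes. In the late 24-hour exposure it went from 0 to 3 with the block and without litter 1, and in con pools of the late 24-hour exposure against the early 24-hour exposure from 8 to 5 without the labelled con libraries of litters 1 and 3. For the difference of effects between the late 24-hour exposure and the early 24-hour exposure it was 0 or 1 with 1 left out. The block changed no other call of the 10 genes than those named in the report.

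Signs turned only in uncalled differences. With 1 pool or litter left out, R2b against con ranged from -0.59 to 0.03 for Cyp26a1 in the early 24-hour exposure, and in the late 24-hour exposure from -0.21 to 0.18 for Aldh1a2, -0.06 to 0.30 for Dhrs3, -0.15 to 0.07 for Cyp26a1 and -0.50 to 0.44 for Crabp1. With the block and without litter 1 of the late 24-hour exposure, Aldh1a2 was at 0.19 and Crabp1 at -0.03; without litters 1 and 3, Aldh1a2 was at 0.02, Cyp26a1 at 0.14 and Cyp26c1 at 0.16. Between con groups, the left-out ranges were -0.08 to 0.30 for Aldh1a2 (the late 24-hour exposure against the early 24-hour exposure), -0.09 to 0.23 for Cyp26a1 and -0.06 to 0.11 for Cyp26c1 (the late 24-hour exposure against the 12-hour exposure), and -0.33 to 0.03 for Aldh1a3, -0.20 to 0.08 for Rdh10 and -0.32 to 0.41 for Crabp1 (the early 24-hour exposure against the 12-hour exposure). Under median-of-ratios factors, a mean CPM of at least 1, DESeq2 and the 2 con groups alone, Cyp26a1 was at -0.01, -0.01, -0.01 and -0.02 and Cyp26c1 at -0.02, -0.03, -0.02 and -0.03 in the late 24-hour exposure against the 12-hour exposure, and Cyp26c1 at -0.07 without litters 1 and 3. Crabp1 in the early 24-hour exposure against the 12-hour exposure was at -0.01, -0.02 and -0.01 under the first 3. The Crabp1 difference of effects between the early 24-hour exposure and the 12-hour exposure ranged from -0.01 to 0.70. The cause was not tested.

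Over all genes, R2b against con gave 2973 calls in the 12-hour exposure (434 without litter 1, 1775 with the block) and 2335 in the early 24-hour exposure (322 without litter 1, 6086 with the block). The late exposure went from 0 to 614 with the block and without litter 1 and to 5 without litters 1 and 3, and con pools of the late against the early 24-hour exposure from 5495 to 2293 without the labelled con libraries of litters 1 and 3. Differences of effects went from 0 to 1062 (early 24-hour minus 12-hour) without litter 2 of the 12-hour exposure and to 69 (late minus early) without litter 2 of the late one. Of 60 mean levels, 59 stayed within 1 SD under other scalings. Depth limits Dhrs3 and Rarb most, with 35 and 66 counts in their lowest libraries.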
